A study of Mus musculus with 21 samples.

Results

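The nuclear-encoded genes of the mitochondrial respiratory chain and ATP synthase were examined across 21 mouse tumours. Members were all genes of the array whose symbols name subunits of the 5 complexes: Nduf genes of complex I, Sdha to Sdhd of complex II, Uqcr genes of complex III, Cox4 to Cox8 genes of complex IV and Atp5 genes of complex V. This gave 84 of the 19505 genes named on the array: 37 of complex I, 4 of complex II, 8 of complex III, 18 of complex IV and 17 of complex V. Each had 1 probe set, so no choice among probe sets was needed. The symbols are partly older ones, such as Atp5a1 and Atp5b for the alpha and beta subunits of ATP synthase. Ndufa4 carries a complex I name although its product is now counted as a subunit of complex IV. The ATP synthase inhibitor Atp5if1 and the 13 subunit genes of mitochondrial DNA had no match among the named probe sets and were not analysed here.

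The inner mitochondrial membrane holds the respiratory chain. Complexes I and II take electrons from NADH and succinate, complex III hands them to cytochrome c, and complex IV passes them to oxygen while protons are pumped out for ATP synthase to use. A few subunits are encoded in the mitochondrion and the rest in the nucleus, where the factors NRF-1 and NRF-2 (GABP, an ETS factor), ERR-alpha and the coactivator PGC-1alpha act on many of their promoters. Some subunits of complex IV have tissue isoforms: heart and skeletal muscle use Cox6a2, Cox7a1 and Cox8b where other tissues use Cox6a1, Cox7a2 and Cox8a, and brown fat also makes Cox7a1 and Cox8b. Liver cells are commonly described as rich in mitochondria, and many tumours draw part of their ATP from glycolysis.

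The tumours grew from Hepa1-6 cells, a mouse hepatoma line, placed subcutaneously in C57BL/6J females aged 5 to 6 weeks. At a tumour volume of 200 mm3 the mice were randomised to placebo (drug vehicle with polyclonal IgG, n = 6), lenvatinib (n = 5), anti-PD1 (n = 5) or both agents (combination, n = 5). Lenvatinib, an oral inhibitor of VEGF, FGF and related receptor kinases, was dosed at 10 mg/kg daily, and the antibody to the T cell receptor PD-1 at 10 mg/kg into the peritoneum every 3 days, 5 doses in all. Collection was on day 13, 2 h after lenvatinib and 1 day after the antibody, and 30 mg of each tumour gave the RNA. Whether mice given a single agent also received the vehicle or IgG of the other is not stated in the labels. The arms share a transplanted line in young immune-competent mice at a site outside the liver, and each tumour is a separate animal, so the tests rest on the spread from animal to animal.

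Promoters are printed for the muscle isoforms Cox7a1 and Cox8b, which varied most, for the ubiquitous forms Cox6a1 and Cox7a2, and for Sdhb and Atp5k, some of whose values are given further on. Each line gives the 250 bases before the transcription start in RefSeq for build GRCm38.p6, read 5′ to 3′ on the gene's own strand. Capitals mark matches on either strand to the NRF-1 core GCGCATG, the ETS core CCGGAAG or the E-box CAGCTG.
Cox6a1, chr5:115348959-115349208, minus strand: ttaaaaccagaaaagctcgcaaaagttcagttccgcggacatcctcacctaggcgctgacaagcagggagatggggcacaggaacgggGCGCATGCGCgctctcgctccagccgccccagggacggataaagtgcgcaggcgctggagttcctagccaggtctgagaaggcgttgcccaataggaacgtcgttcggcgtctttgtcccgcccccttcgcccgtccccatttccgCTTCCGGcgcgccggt
Sdhb, chr4:140961021-140961270, plus strand: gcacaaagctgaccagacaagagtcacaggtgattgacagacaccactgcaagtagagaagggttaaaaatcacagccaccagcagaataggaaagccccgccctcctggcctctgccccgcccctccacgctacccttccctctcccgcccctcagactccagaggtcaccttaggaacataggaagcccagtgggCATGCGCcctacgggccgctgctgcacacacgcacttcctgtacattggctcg
Atp5k, chr5:108434400-108434649, minus strand: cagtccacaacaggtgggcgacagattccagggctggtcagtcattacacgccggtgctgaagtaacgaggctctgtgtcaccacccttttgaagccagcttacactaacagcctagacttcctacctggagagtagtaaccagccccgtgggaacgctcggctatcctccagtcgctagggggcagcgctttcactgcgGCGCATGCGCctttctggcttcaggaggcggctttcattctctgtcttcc
Cox7a2, chr9:79759854-79760103, minus strand: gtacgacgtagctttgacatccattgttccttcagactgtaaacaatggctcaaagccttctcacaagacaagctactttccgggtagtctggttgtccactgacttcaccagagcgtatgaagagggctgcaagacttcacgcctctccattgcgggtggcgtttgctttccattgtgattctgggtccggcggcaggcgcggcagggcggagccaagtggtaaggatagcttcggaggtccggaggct
Cox7a1, chr7:30183921-30184170, plus strand: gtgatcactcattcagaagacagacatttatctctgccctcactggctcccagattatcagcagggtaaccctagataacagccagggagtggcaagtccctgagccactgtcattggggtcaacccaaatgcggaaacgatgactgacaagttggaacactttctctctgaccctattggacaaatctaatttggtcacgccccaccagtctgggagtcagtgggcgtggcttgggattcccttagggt
Cox8b, chr7:140900447-140900696, minus strand: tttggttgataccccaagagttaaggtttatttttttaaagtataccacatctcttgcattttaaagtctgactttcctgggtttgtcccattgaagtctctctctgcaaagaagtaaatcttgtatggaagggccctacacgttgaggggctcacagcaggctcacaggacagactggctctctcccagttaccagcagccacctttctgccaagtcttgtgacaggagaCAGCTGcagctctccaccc
The Cox6a1 and Atp5k stretches each hold the NRF-1 core on both strands, as overlapping matches in 1 palindrome. In Cox6a1, the ubiquitous form, these began 162 and 159 bases before the start, and an ETS core began 16 bases before it. Those of Atp5k, which encodes subunit e of ATP synthase, began 50 and 47 bases before the start. Sdhb, the iron-sulfur subunit of complex II, had 1 NRF-1 core in the printed stretch, 53 bases before its start. Neither Cox7a2 nor its muscle counterpart Cox7a1 held a match in the printed stretch, and Cox8b held 1 E-box 19 bases before its start. The promoter table gives 1 start for Cox7a2, while the annotated gene reaches farther upstream, and sequence there was not examined.

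Promoter windows of 300 bases, the 250 shown and the 50 that follow the start, were found for 69 of the 84 members and for 27025 genes in all, and a gene counted when any of its windows held the letters on either strand. The NRF-1 core GCGCATG was in 13 of 69 members (18.8%) and 4.41% of all genes. The ETS core CCGGAAG was in 17 members (24.6%) against 9.93%, and 24 members (34.8%) had 1 or both cores against 13.5% of all genes. The ERR site letters AAGGTCA was in 8 members (11.6%) against 5.38%, and the YY1 core ATGGCGG was in 10 (14.5%) against 4.69%. The E-box CAGCTG was in 6 members (8.70%) against 18.3%, and the letters TATAAA were in 8 (11.6%) against 15.7%. These 2 were added after the sequences had been seen. Matches not wholly inside the printed stretches counted Sdhb and Atp5k for the ETS core, Atp5k for the ERR letters and Cox8b for TATAAA. The motifs can overlap only where their letters coincide, and a match describes letters in a window, not a bound site.

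Signals are log2 values, and a difference of 1 is a 2-fold ratio of signal. Because probes differ in brightness, each gene is compared with itself across tumours and not with other genes. Of the 84 members, 83 had a mean in every arm above 4.08, the median of the array's negative controls. The testis isoform Cox7b2 was the exception, with arm means between 3.28 and 3.43, and it carries no readable signal here. Several members have processed pseudogenes or near-identical copies, among them Ndufb4 with Ndufb4b, and Uqcrh, Cox7c and Atp5g2, so their probe sets may also have read the copies.

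To summarise them, every gene's average over the 21 tumours was subtracted from its signals, and a score is the mean of these deviations over a set of genes. It was taken over the 76 members left without the 8 tissue or oxygen-linked isoforms (Cox6a2, Cox7a1, Cox8b, Cox6b2, Cox7b2, Cox8c, Cox4i2 and Ndufa4l2). In placebo the score was 0.61, 0.10, -0.21, 0.34, -0.21 and 0.35 in mice 1 to 6. It was 0.02, 0.32, -0.36, -0.24 and -0.42 in lenvatinib, 0.40, 0.35, -0.13, -0.13 and -0.41 in anti-PD1, and -0.02, 0.23, -0.16, -0.33 and -0.08 in the combination. Each arm thus held tumours on both sides of 0, and the 4 arms overlapped.

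Most of the 76 genes lay on 1 side of their means in many tumours, but not in all. In placebo 1, 74 of 76 lay above their own mean, and 27 of them had their highest value of all 21 tumours there. In lenvatinib 5, 72 of 76 lay below, and 17 had their lowest value there. In anti-PD1 5, 71 lay below and 18 were lowest. Other tumours were mixed, with 42 above and 34 below in combination 1, 49 and 27 in lenvatinib 1, and 26 and 50 in combination 5. The heat map of the members by tumour shows the first 3 as columns of nearly 1 colour. The median standard deviation over tumours was 0.43 for the members against 0.40 for all probe sets. Restricted to genes with a mean above 8, it was 0.42 for 69 members against 0.46 for 2803 probe sets, so the members as single genes varied about as much as others of their brightness.

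**Figure D1:**
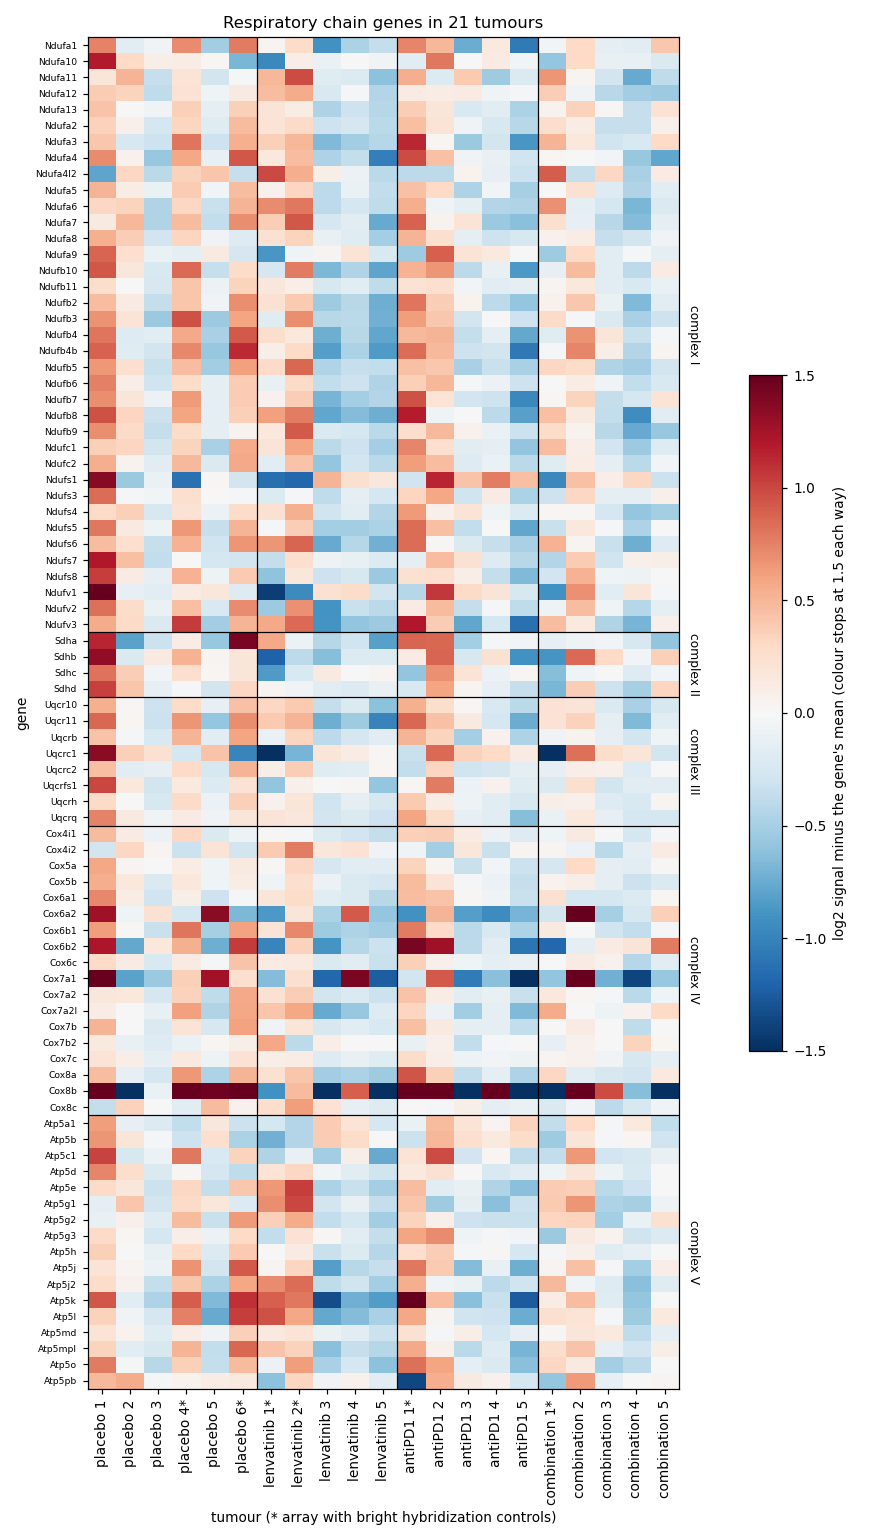
Each row is 1 of the 84 genes, ordered by complex, and each column 1 of the 21 tumours, with colour giving the log2 signal minus the gene's mean and stopping at 1.5 in each direction. Placebo 1 is raised for nearly all genes, lenvatinib 5 and antiPD1 5 are lowered, and Cox8b, Cox7a1 and Cox6a2 vary most.

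The steadiest members were small abundant subunits and the unread Cox7b2. Cox7c, a small subunit of complex IV, lay between 12.40 and 12.92 (SD 0.15) over the 21 tumours. Atp5md, a small membrane subunit of ATP synthase, lay between 12.08 and 12.81 (SD 0.20). Cox7b2 had an SD of 0.21. The most variable were the 3 muscle isoforms, with SDs of 2.59 for Cox8b, 1.47 for Cox7a1 and 0.89 for Cox6a2.

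Features of the libraries moved with the score and precede the comparison of arms. The hybridization controls, spiked-in RNAs that report on the staining of each array, averaged 11.3 to 11.7 on 6 arrays and 10.3 to 10.9 on the other 15. The bright arrays were placebo 4 and 6, lenvatinib 1 and 2, anti-PD1 1 and combination 1, so every arm held at least 1. The interquartile range of their signals was 2.41 to 2.82, and 3.00 to 3.25 on the others. Array medians lay between 5.32 and 5.49 on all 21. The score was -0.02 to 0.40 (median 0.33) on the 6 bright arrays and -0.42 to 0.61 (median -0.16) on the others.

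With the arms kept in the fit, limma compared the 6 bright arrays with the other 15 for every probe set. At a Benjamini-Hochberg adjusted p under 0.05, 44 of 84 members were higher on the bright arrays, where 21.0% of all 22206 probe sets were, and 9 members were lower, where 17.4% were. The median difference was 0.40 over the members against 0.06 over all probe sets. Those higher were mostly outside the lists of core subunits of complexes I and III and of F1 subunits of ATP synthase. Atp5k stood at 1.29 ± 0.27 (standard error; adjusted p = 0.00124), the complex I subunit Ndufv3 at 1.10 ± 0.21 (7.744e-04) and Atp5l, subunit g of ATP synthase, at 0.99 ± 0.17 (3.140e-04). Atp5k was at 9.48, 9.66, 9.47, 9.36, 10.08 and 8.68 on the bright arrays in the order given above. On the other 15 it ran from 7.23 to 9.50, so the kinds of array overlapped.

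Of the 9 members lower on the bright arrays, 5 were on the core and F1 lists. Uqcrc1, a core protein of complex III, stood at -1.22 ± 0.19 (adjusted p = 1.500e-04), Ndufs1, the largest iron-sulfur subunit of complex I, at -1.11 ± 0.22 (7.157e-04) and Ndufv1, which binds NADH, at -0.86 ± 0.24. The others were Atp5b at -0.66, Ndufa9 at -0.56, Atp5pb and Ndufa10 at -0.51, Sdhc at -0.46 and Atp5a1 at -0.43. The lists of complex I core, complex III core and F1 subunits (alpha to epsilon) held 14 measured genes. Of these, 1 was higher (Atp5e), 5 were lower and 8 were not called, with a median of -0.02. Of the 62 other members outside the isoforms, 43 were higher and 4 lower, with a median of 0.51. These lists were drawn up with earlier results of these data known, and the reason for the split was not tested.

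**Figure D2:**
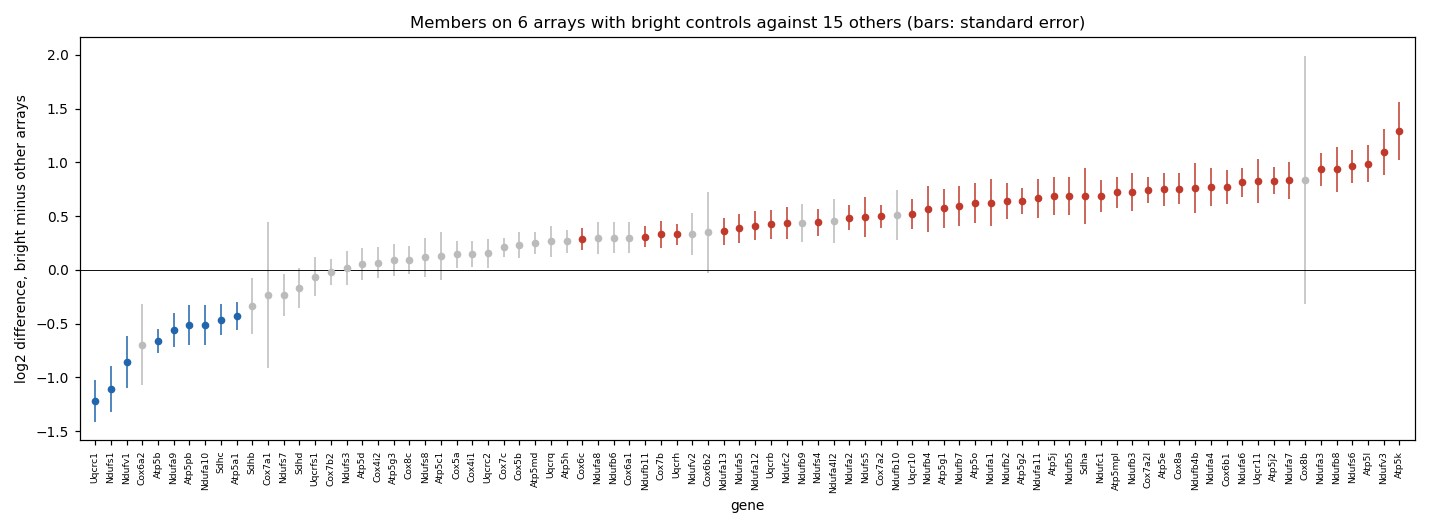
Points give the log2 difference of each of the 84 members between the 6 arrays with bright hybridization controls and the 15 others, with the arms in the fit, and bars its standard error; red and blue points passed an adjusted p under 0.05 and grey ones did not. The 44 red genes lie above 0 and the 9 blue ones, led by Uqcrc1, Ndufs1 and Ndufv1, below it.

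The second feature was tissue other than hepatoma. Hepatocyte genes stood for the Hepa1-6 cells: albumin (Alb) had a median of 12.2 over the 21 tumours and alpha-fetoprotein (Afp) a median of 11.2. Placebo 1 had Alb at 7.56 and Afp at 5.60, placebo 6 had 7.65 and 5.05, and anti-PD1 2 had 8.41 and 3.75. All 12 markers on the hepatocyte list were measured, and its score was -1.62, -1.61 and -1.76 in those tumours against a highest value of 1.19. Hepatocyte transcripts were thus low in these 3 pieces. The next lowest scores were -1.28 in combination 5 and -1.17 in placebo 4. The skeletal muscle score, over 15 of 15 listed markers, was 3.91 in placebo 1, 3.81 in placebo 5, 3.54 in lenvatinib 4, 3.15 in anti-PD1 2 and 4.65 in combination 2, and at most 1.22 in the rest. The brown adipocyte score, over 4 of 4 markers, was 4.32 in placebo 1 and at most 0.55 elsewhere. Ucp1, the uncoupling protein that defines brown fat, was at 11.4 in placebo 1 and between 2.79 and 4.05 in the other 20. In bulk tissue, fewer cells of a type and less RNA per cell cannot be told apart.

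The muscle isoforms Cox7a1 and Cox6a2 were highest in the tumours rich in muscle, but Cox7a1 did not follow the order of the muscle score. Cox7a1, the heart and muscle form of subunit VIIa, was at 11.35 in placebo 1, 10.81 in combination 2, 8.93 in lenvatinib 4, 8.77 in placebo 5 and 8.44 in anti-PD1 2. Those are the 5 tumours with the high muscle score. Of them, placebo 1 also had the brown adipocyte score of 4.32. Combination 2 had a heart and slow muscle score of 1.64 over 9 markers, against at most 0.27 in any other tumour. The part of each tissue was not tested. The other 16 lay between 5.55 and 7.86.

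Cox6a2, the muscle form of subunit VIa, was highest in the same 5 tumours, with 9.28 in combination 2, 8.15 in placebo 5, 8.07 in placebo 1, 7.72 in lenvatinib 4 and 7.31 in anti-PD1 2. The other 16 lay between 5.85 and 7.15. The ratio of the highest to the lowest signal was 10.7-fold for Cox6a2 and 55.6-fold for Cox7a1.

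Cox8b, the muscle and brown fat form of subunit VIII, had a different order. Its highest signal was at least 245-fold the lowest, counted from the negative-control median of 4.08, since 3 tumours lay below it. In placebo it ran from 5.34 through a median of 9.32 to 12.01. It was at 6.78, 8.16, 4.09, 8.59 and 3.89 in lenvatinib, at 10.48, 10.40, 5.62, 9.18 and 4.05 in anti-PD1 and at 3.73, 10.89, 8.67, 7.05 and 5.65 in the combination. It was also high in tumours without a muscle signal: placebo 6 was at 10.64, anti-PD1 1 at 10.48, placebo 4 at 9.49 and anti-PD1 4 at 9.18. Those tumours had white adipocyte scores of 1.94, 2.42, 2.39 and 1.82, over 9 of 10 listed markers. The tumours with Cox8b at or below 4.09, lenvatinib 3 and 5, anti-PD1 5 and combination 1, had adipocyte scores of -2.72, -2.36, -2.54 and -2.56, the 4 lowest of all. The correspondence is a description over 21 tumours, which share the tissue in both readings.

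**Figure D3:**
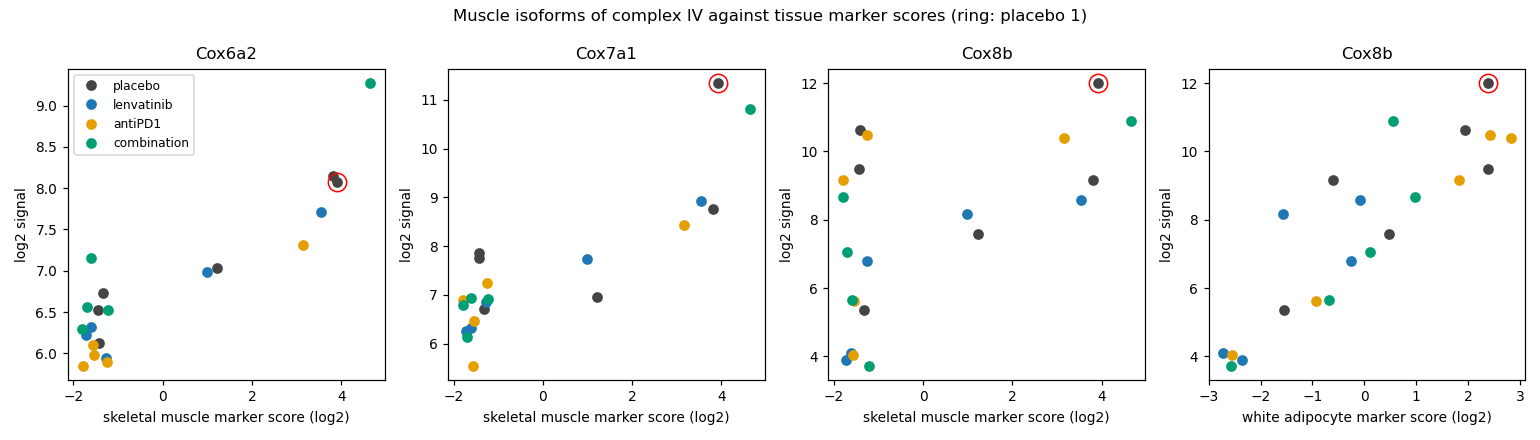
The first 3 panels plot the log2 signals of Cox6a2, Cox7a1 and Cox8b in each of the 21 tumours against the skeletal muscle marker score, and the last plots Cox8b against the white adipocyte marker score, coloured by arm with a red ring on placebo 1. Cox6a2 and Cox7a1 are highest in the 5 tumours with muscle scores from 3.15 to 4.65, while Cox8b is also high in tumours with low muscle and high adipocyte scores.

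The ubiquitous subunits were not raised in every muscle-rich tumour. The tumours placebo 5 and lenvatinib 4, with muscle scores of 3.81 and 3.54, had scores of -0.21 and -0.24 over the 76 genes. Placebo 1, anti-PD1 2 and combination 2, the others rich in muscle, had 0.61, 0.35 and 0.23. Placebo 1 and anti-PD1 2 also had the highest signals of Ppargc1a, which encodes PGC-1alpha, at 10.5 and 8.88, with a median of 5.78 over all tumours. They had the highest fatty acid oxidation scores as well, at 1.80 and 1.11 over 15 of 16 listed genes. Whether brown fat, muscle or the Hepa1-6 cells carried the higher respiratory chain signal of placebo 1 was not tested.

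Complex II was highest in 3 tumours with few hepatocyte transcripts, but not in all such tumours. Its score was 1.08 in placebo 1, 0.75 in anti-PD1 2 and 0.53 in placebo 6, the 3 tumours with the lowest hepatocyte scores, and at most 0.27 in the other 18. Combination 5 and placebo 4, with the next lowest hepatocyte scores of -1.28 and -1.17, had complex II scores of 0.01 and 0.22. Sdha, the subunit that oxidises succinate, was at 8.64 in placebo 6, 8.35 in placebo 1, 8.08 in anti-PD1 1 and 8.07 in anti-PD1 2, and at most 7.78 elsewhere. Placebo 6 and anti-PD1 1 were bright arrays, and Sdha was higher on such arrays, at 0.69 ± 0.26 (limma adjusted p = 0.0412). Sdhb was at 11.03 in placebo 1, 10.58 in anti-PD1 2 and 10.55 in combination 2. The membrane anchors Sdhc and Sdhd were both highest in placebo 1, at 7.33 and 9.44.

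Cox6b2, a testis form of subunit VIb, was highest in the same tumours as Sdha, at 6.85 and 6.70 in anti-PD1 1 and 2, 6.64 in placebo 1 and 6.47 in placebo 6. Their white adipocyte scores were 2.42, 2.82, 2.39 and 1.94. Its arms overlapped widely (5.67 ± 0.86, 4.97 ± 0.53, 5.64 ± 1.10 and 5.38 ± 0.72, means ± SD in placebo, lenvatinib, anti-PD1 and combination). Cox8c, the testis form of subunit VIII, stayed between 5.22 and 6.24. Ndufa4l2, an isoform induced by low oxygen, was lowest in placebo 1 at 3.80, below the negative controls, and highest in lenvatinib 1 at 5.58 and combination 1 at 5.50. Cox4i2, the oxygen-linked form of subunit IV, was highest in lenvatinib 2 at 6.81 and lowest in anti-PD1 2 at 5.54. Lenvatinib 1 and 2 and combination 1 were bright arrays. On the 6 bright arrays against the other 15, Ndufa4l2 stood at 0.45 ± 0.20 and Cox4i2 at 0.07 ± 0.14, neither called (limma adjusted p = 0.0850 and 0.726).

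The effect of lenvatinib alone was assessed over its 5 tumours against the 6 given placebo. No member passed an adjusted p under 0.05, and 0% of the 22206 probe sets did. Of the members 78 of 84 were below 0, where 11312 of the 22206 probe sets were. Their median difference was -0.29 against -0.01 over all probe sets. Members often moved together within a tumour, so counts of members, here and in the comparisons below, are not counts of separate observations. Over the 76 genes the score averaged 0.16 ± 0.33 in placebo and -0.14 ± 0.30 in lenvatinib (means ± SD). At an unadjusted p under 0.05 there were 0 members higher and 4 lower, where 2.92% and 4.05% of all probe sets were higher and lower. The count of lower members was near the background here and rested on single libraries: it was 15 without lenvatinib 2, 14 without placebo 5, 9 without placebo 3 and 2 without placebo 1. It was 12 without the 6 bright arrays and 18 with the control signal as a covariate. By complex, the medians over ubiquitous subunits were -0.35 for I, -0.41 for II, -0.28 for III, -0.20 for IV and -0.19 for V.

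Ndufs8, an iron-sulfur subunit of complex I, had the smallest p. It ran from 8.94 through a median of 9.33 to 10.11 in placebo and was at 8.46, 9.24, 8.75, 8.83 and 8.51 in lenvatinib. The arms overlapped, and the difference was -0.62 ± 0.23 (limma adjusted p = 0.693). Sdhb ran from 9.48 through 9.86 to 11.03 in placebo and was at 8.49, 9.31, 9.06, 9.50 and 9.50 in lenvatinib. All but 2 of the lenvatinib values lay below every placebo value, and the difference was -0.86 ± 0.33 (adjusted p = 0.693). Ndufv2, the iron-sulfur partner of Ndufv1, stood at -0.62 ± 0.26 and Atp5c1, the gamma subunit of ATP synthase, at -0.61 ± 0.28.

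Of the 6 members above 0, 2 were ubiquitous subunits, at most at 0.15. The rest were isoforms, among them Cox7b2, which has no readable signal. Cox4i2 ran from 5.72 through 5.93 to 6.35 in placebo and was at 6.44, 6.81, 6.22, 6.26 and 5.99 in lenvatinib, a difference of 0.35 ± 0.18. Ndufa4l2 stood at 0.30 ± 0.28 and Cox8c at 0.10 ± 0.17. None of these passed the test. Cox8b stood at -2.74 ± 1.41 (95% interval -5.66 to 0.19), Cox7a1 at -1.01 ± 0.82 and Cox6a2 at -0.47 ± 0.49.

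Many tissue markers lay to one side in the same comparison, with 0 called. White adipocyte markers were below 0 for 9 of 9 (median -1.73), skeletal muscle markers for 15 of 15 (-0.83), fibroblast markers for 8 of 8 (-1.09), macrophage markers for 8 of 8 (-0.67) and T cell markers for 7 of 7 (-0.58). Hepatocyte markers were above 0 for 12 of 12 (median 1.28) and markers of dividing cells for 11 of 11 (1.22). Heart and slow muscle markers (6 of 9 above 0), endothelial markers (2 of 7), B cell markers (4 of 5) and brown adipocyte markers (1 of 4) were divided. The white adipocyte score ran from -1.55 to 2.39 in placebo and from -2.72 to -0.08 in lenvatinib. The hepatocyte score ran from -1.62 to 1.06 in placebo and from 0.41 to 1.02 in lenvatinib. The part of these tissues in the differences of the respiratory chain genes was not tested.

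The other lists of the pathway are given for the same comparison, with 0 genes called in each. Of 15 citric acid cycle genes 13 were below 0 (median -0.34), and of 15 fatty acid oxidation genes 14 were (median -0.61). Assembly factors of complex I were below 0 for 11 of 14 (median -0.28), those of complexes II and III for 10 of 10 (-0.18), those of complex IV for 12 of 17 (-0.13) and those of complex V for 3 of 4 (-0.42). Of 18 glycolysis and lactate genes 15 were above 0, with a median of 0.44. Mitochondrial ribosome genes of the large subunit lay at a median of -0.01, with 10 of 20 on each side, and cytosolic ribosome genes at 0.19, with 11 of 12 above 0. Of 13 regulators 6 were above 0. Hccs, which attaches haem to cytochrome c, stood at -0.68 ± 0.23. The mitochondrial fatty acid carrier Slc25a20 stood at -1.49 ± 0.51 and Pgk1, a glycolytic enzyme, at 0.91 ± 0.34.

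Leaving out libraries changed the size of this shift but not its side. Without placebo 1 the median over members was -0.19, with 15 of 84 above 0. Without the 6 bright arrays it was -0.39, and without placebo 1 and the bright arrays, which left 3 tumours in each arm, it was -0.23 with 7 above 0. Under array weights 30 members were lower at an unadjusted p under 0.05, and 0 members and 0 probe sets passed the adjusted test.

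Anti-PD1 alone was assessed over 5 tumours against the same 6 placebo tumours. No member passed the test, and 0% of probe sets did. The median difference over members was -0.14, with 75 of 84 below 0, and at an unadjusted p under 0.05 there were 0 members in either direction, where 1.38% of probe sets were higher and 2.68% lower. The members above 0 with the smallest p were Ndufs1 at 0.61 ± 0.40, Atp5a1 at 0.23 ± 0.20 and Atp5g3, a gene of the proton-carrying subunit c, at 0.17 ± 0.19. Those below were Cox6a2 at -0.88 ± 0.49, Ndufs8 at -0.40 ± 0.23 and Cox7a1 at -1.32 ± 0.82 (adjusted p = 1.00 for each of the 6).

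Ndufs1 was at 5.44, 6.88, 6.17, 6.50 and 6.19 in anti-PD1 and ran from 4.61 through 5.55 to 7.10 in placebo, so the placebo arm held both lower and higher values. Its bright arrays placebo 4 and 6 were at 4.61 and 5.46. Without placebo 1 the median over members was -0.09, and without placebo 1 and the bright arrays it was 0.00, with 44 of 84 above 0. Leaving out anti-PD1 5 moved it to -0.05, leaving out anti-PD1 1 to -0.27 and leaving out the 5 muscle-rich tumours to -0.24. The shift of the members below placebo in this arm thus rested on which tumours were kept.

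Tissue markers differed in the same comparison, with 0 called. Skeletal muscle markers were below 0 for 15 of 15 (median -1.48), macrophage markers for 8 of 8 (-1.07) and T cell markers for 7 of 7 (-0.93). So were brown adipocyte markers for 4 of 4 (-0.30) and fibroblast markers for 7 of 8 (-0.49). Endothelial markers were above 0 for 7 of 7 (median 0.41), dividing-cell markers for 11 of 11 (0.46) and hepatocyte markers for 11 of 12 (0.46). Their part in the members' shift was not tested.

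The combination was set against the same 6 placebo tumours. No member passed the test, with 0% of probe sets called, and 79 of 84 members were below 0 with a median of -0.23. At an unadjusted p under 0.05 there were 0 members in either direction, where 1.01% of probe sets were higher and 1.30% lower. Sdhc stood at -0.46 ± 0.22, Ndufs4, an accessory subunit needed for a stable complex I, at -0.40 ± 0.20 and Ndufa4 at -0.54 ± 0.30. Ndufa4l2 stood at 0.18 ± 0.28 and Cox7a2l at 0.04 ± 0.25. Cox7b2, also above 0, has no readable signal and no difference is given.

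Sdhc ran from 6.47 through 6.73 to 7.33 in placebo and was at 5.88, 6.45, 6.50, 6.33 and 6.47 in the combination. Its lowest value came from combination 1, a bright array, and Sdhc was among the genes lower on bright arrays. Ndufs4 ran from 9.85 through 10.34 to 10.46 in placebo and was at 10.12, 10.11, 9.83, 9.52 and 9.59 in the combination. Without placebo 1 the median over members was -0.14, and without placebo 1 and the bright arrays it was 0.02, with 46 of 84 above 0. Tissue markers differed beside it, with 0 called. White adipocyte markers were below 0 for 9 of 9 (median -1.27) and skeletal muscle markers for 15 of 15 (-1.10). So were brown adipocyte markers for 4 of 4 (-0.77) and fibroblast markers for 8 of 8 (-0.23). T cell (7 of 7, median 0.68), B cell (5 of 5, 1.40), macrophage (8 of 8, 0.21) and dividing-cell markers (11 of 11, 0.28) were above 0. Hepatocyte (8 of 12 above 0), endothelial (2 of 7) and heart and slow muscle markers (7 of 9) were divided. Their part was not tested. The 3 comparisons with placebo share its 6 tumours, so their like direction is not independent.

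**Figure D4:**
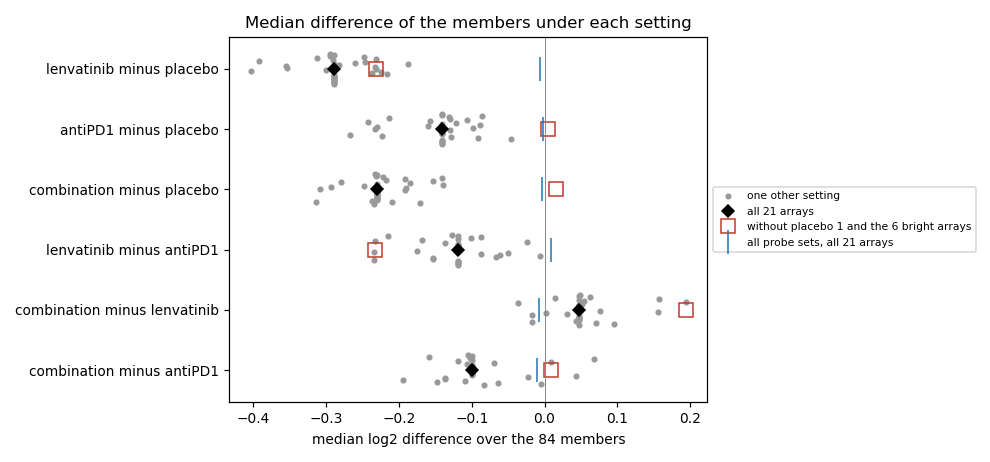
Each row is 1 pair of arms, and the horizontal axis is the median log2 difference over the 84 members: the black diamond uses all 21 arrays, grey points each change 1 setting or leave out 1 mouse, the red square leaves out placebo 1 and the 6 bright arrays, and the blue tick is the median over all probe sets. Lenvatinib minus placebo stays between -0.40 and -0.19, while the red squares of antiPD1 and combination minus placebo lie at 0.00 and 0.02.

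Pairs of treated arms were compared in the same way. For the combination against lenvatinib alone, 51 of 84 were above 0 with a median of 0.05, and no member passed the test, with 0% of probe sets called. At an unadjusted p under 0.05 there were 0 members higher and 1 lower, where 3.87% and 2.53% of probe sets were. Sdhb stood at 0.65 ± 0.34, with 8.82, 10.55, 10.00, 9.66 and 10.06 in the combination. That lower member was Cox4i2, at 6.09, 5.96, 5.64, 5.90 and 6.17 in the combination and -0.39 ± 0.19 in difference (limma adjusted p = 0.780). Ndufs8 stood at 0.33 ± 0.24, Ndufa13 at 0.24 ± 0.20, Cox8c at -0.35 ± 0.18 and Ndufa12 at -0.30 ± 0.21. Without the bright arrays the median was 0.19, with 73 of 84 above 0, and without combination 2 it was -0.02. It was -0.04 without the 5 muscle-rich tumours. White adipocyte, macrophage, T cell and B cell markers were above 0 for all measured (medians 0.74, 0.94, 1.21 and 1.21) and hepatocyte markers for 0 of 12 (-0.98), with 0 called and their part not tested.

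For the combination against anti-PD1 alone, 26 of 84 were above 0 with a median of -0.10. No member passed the test, and 0% of probe sets did. At an unadjusted p under 0.05 there were 0 members higher and 1 lower, where 4.85% and 2.79% of probe sets were. Atp5g3 was at 9.52, 10.22, 10.13, 9.78 and 9.87 in the combination and at 10.68, 10.79, 10.01, 10.05 and 10.03 in anti-PD1, a difference of -0.41 ± 0.19 (limma adjusted p = 0.636). Anti-PD1 1 and 2 set the upper end. Ndufs4 stood at -0.39 ± 0.21, Ndufa4 at -0.46 ± 0.31, Cox6a2 at 0.94 ± 0.51, Cox7a2l at 0.39 ± 0.27 and Ndufa4l2 at 0.34 ± 0.29. Without the bright arrays the median was 0.01, without anti-PD1 1 it was 0.04 and under array weights 0.07. White adipocyte markers were below 0 for 9 of 9 (median -1.11), and macrophage, T cell and B cell markers above it for all measured (1.29, 1.77 and 1.71), with 0 called and their part not tested.

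For lenvatinib against anti-PD1, 21 of 84 were above 0 with a median of -0.12, with 0 members and 0% of probe sets called. At an unadjusted p under 0.05 there was 1 member higher and 0 lower, where 1.55% and 3.04% of probe sets were. That member was Cox4i2, at 5.98, 5.54, 6.22, 5.71 and 6.08 in anti-PD1, with a difference of 0.44 ± 0.19 (limma adjusted p = 0.955). Ndufa4l2 stood at 0.46 ± 0.29, Atp5g1 at 0.43 ± 0.29, Atp5g3 at -0.36 ± 0.19, Ndufs1 at -0.78 ± 0.42 and Cox4i1 at -0.29 ± 0.16. Without anti-PD1 1 the median was -0.01, and without lenvatinib 2 it was -0.23. It was -0.02 without the 5 muscle-rich tumours. White adipocyte markers were below 0 for 9 of 9 (median -2.18) and endothelial markers for 7 of 7 (-0.70), with 0 called and their part not tested. These 3 comparisons share arms in pairs, and so do the values of Cox4i2 in them.

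**Figure D5:**
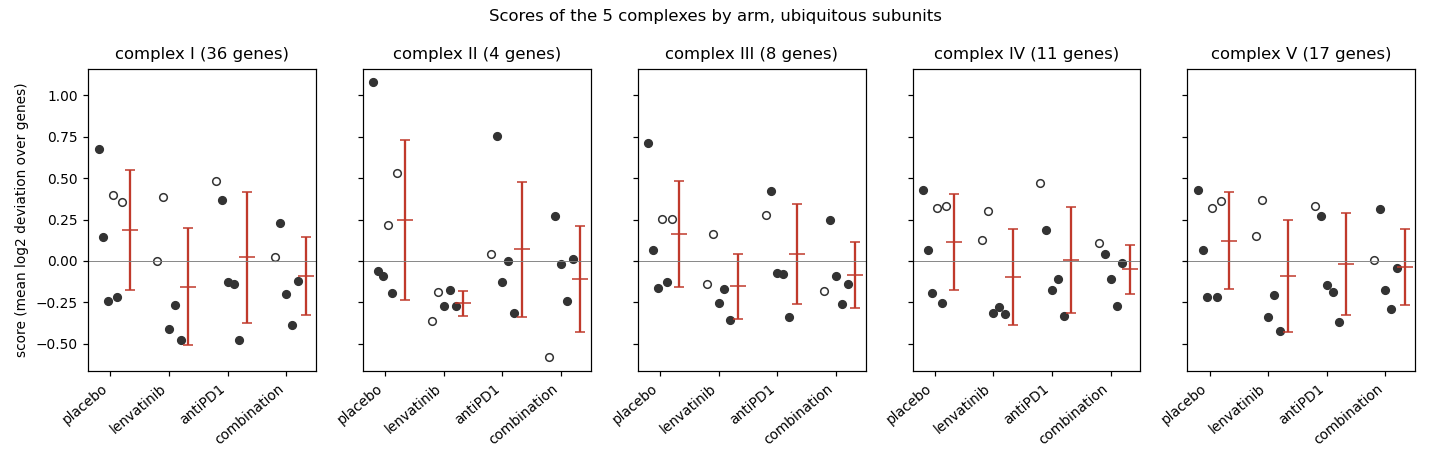
Points give the score of each complex over its ubiquitous subunits in each tumour, by arm, with open points for the 6 arrays with bright hybridization controls and red marks for the arm mean ± SD. Every complex has overlapping arms, and complex II in lenvatinib is the narrowest, at -0.37 to -0.18.

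The departure from additivity, combination minus lenvatinib minus anti-PD1 plus placebo, asks whether both agents together differed from the sum of their single differences on the log2 scale. No member passed the test, with 0% of probe sets called. The median over members was 0.18, with 69 of 84 above 0, against -0.01 over all probe sets. At an unadjusted p under 0.05 there was 1 member higher and 0 lower, where 5.70% and 3.31% of probe sets were. Ndufs8 stood at 0.73 ± 0.33 (limma adjusted p = 0.508), Sdhb at 0.97 ± 0.47 and Cox6a2 at 1.41 ± 0.71. Cox4i2 stood at -0.31 ± 0.26, Cox8c at -0.25 ± 0.24 and Ndufa12 at -0.25 ± 0.29. The placebo arm enters with a positive sign, and without placebo 1 the median was 0.12. It was 0.08 without anti-PD1 5, 0.29 without lenvatinib 2, 0.34 without the 6 bright arrays (75 of 84 above 0) and 0.35 under array weights. Tissue markers departed as well, with 0 called: skeletal muscle 15 of 15 above 0 (median 1.12), T cell 7 of 7 (2.35), macrophage 8 of 8 (1.99), fibroblast 7 of 8 (1.49), hepatocyte 0 of 12 (-1.61) and dividing cells 0 of 11 (-1.40). Their part in the members' median was not tested. Under array weights 3 members passed, Cox7a2l at 0.95, Ndufa13 at 0.74 and Ndufb7 at 1.07 (adjusted p = 0.0450, 0.0409 and 0.0400), where 1691 of 22206 probe sets (7.62%) did.

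The remaining core subunits had overlapping arms in every comparison with placebo. Uqcrc1 averaged 8.25 ± 0.78 in the 6 placebo tumours (mean ± SD). It averaged 7.69 ± 0.71 under lenvatinib, 8.32 ± 0.43 under anti-PD1 and 7.96 ± 0.87 under both agents, with 5 tumours each. Its low values of 6.57, 6.56 and 7.08 came from the bright arrays lenvatinib 1, combination 1 and placebo 6. Uqcrfs1, the Rieske iron-sulfur protein, averaged 8.32 ± 0.46, 7.93 ± 0.34, 8.26 ± 0.38 and 8.03 ± 0.20 in the same order. Uqcrc2 stood at -0.09 ± 0.17, -0.27 ± 0.17 and -0.15 ± 0.17 in lenvatinib, anti-PD1 and the combination against placebo.

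Among complex I core genes, Ndufv1 stood at -0.67 ± 0.37, -0.07 ± 0.37 and -0.29 ± 0.37, Ndufs3 at -0.36 ± 0.20, -0.11 ± 0.20 and -0.20 ± 0.20, and Ndufs7 at -0.22 ± 0.25, -0.14 ± 0.25 and -0.16 ± 0.25. Of the F1 subunits, Atp5b stood at -0.15 ± 0.23, 0.12 ± 0.23 and -0.18 ± 0.23. The delta subunit Atp5d stood at -0.02 ± 0.18, -0.03 ± 0.18 and -0.06 ± 0.18, and the epsilon subunit Atp5e at -0.01 ± 0.28, -0.26 ± 0.28 and -0.08 ± 0.28. For Atp5d against placebo the 95% interval in lenvatinib ran from -0.40 to 0.36.

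The 7 ubiquitous partners of the isoforms were also not called. Against placebo, in lenvatinib, anti-PD1 and the combination, Cox6a1 stood at -0.12, 0.06 and -0.14 (each ± 0.20), Cox7a2 at -0.14, -0.11 and -0.16 (± 0.19), Cox8a at -0.31, -0.06 and -0.17 (± 0.27), Cox6b1 at -0.33, -0.21 and -0.32 (± 0.29), Cox7b at -0.24, -0.16 and -0.20 (± 0.18) and Cox4i1 at -0.26, 0.02 and -0.13 (± 0.15). Ndufa4, the partner of Ndufa4l2, stood farthest from placebo, at -0.51, -0.08 and -0.54 (± 0.30). Sdha stood at -0.38, 0.06 and -0.38 (± 0.36) and Sdhd at -0.32, -0.23 and -0.38 (± 0.24).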

How the data were processed

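RNA from 21 tumours, 1 array per mouse, was measured on Clariom S mouse arrays. The authors' deposited values are log2 signals. Per the submitters' processing notes, RMA and oligo were used, without versions. In general RMA subtracts background, equalises the distributions of probe signals between arrays and combines the probes of a set, which hides shifts common to most genes. The deposited values still differed in spread. Their interquartile range was 2.41 to 2.82 on the 6 bright arrays and 3.00 to 3.25 on the other 15. Build and annotation: not given in the sources used here. Arms came from the treatment labels.

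The table has 29129 rows. Leaving out 6923 controls, 22206 probe sets were tested, with no filter on dim signals. Symbols came from the platform annotation, updated through gene identifiers: 19572 probe sets had 1 symbol, 0 several, and 2634 are unnamed here. limma 3.58.1 (statmod 1.5.0, R 4.3.3) fitted 4 arm means over all 21 arrays, with eBayes and 7 contrasts, two-sided, and Benjamini-Hochberg adjustment over all probe sets within a contrast, called at 0.05. Errors beside differences are standard errors and those beside arm means are SDs. The fit was tested on simulated data. Precision is limited by the number of arrays.

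Members and gene lists were chosen with earlier results of these data known, so no list has a test of its own. Genes named are, per contrast, the 3 members with the smallest p in each direction, the isoforms, their ubiquitous partners, the core and F1 subunits, the complex II subunits, the 3 most and 3 least variable members, and up to 2 genes of another list. Members named for the bright arrays or under array weights were chosen after their values were seen.

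As alternatives, dim probe sets below the 40th percentile were dropped, eBayes was run with its trend and robust options, and the others were cyclic loess, median centring, array weights, the mouse number as a block, the control signal or the muscle score as a covariate, an adjusted p under 0.1, only the 2 arms compared, and leaving out the 6 bright arrays, the 5 muscle-rich tumours or each mouse. Leaving out placebo 1 with the bright arrays, and the E-box and TATAAA motifs, were added after the data were seen.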

Additional observations from a re-analysis of the deposited data

Results flagged for a closer look

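A single tumour lay far from the others of its arm in 10 of 196 groups checked, 49 genes and scores in 4 arms each. Chance flags about 1 in 20 groups. In the combination, mouse 2 stood apart for Cox6a2 at 9.28 (the next was 7.15), Cox7a1 at 10.81 (6.94), Atp5c1 at 7.16 (6.39) and the Rieske protein gene Uqcrfs1 at 8.38 (7.98). In anti-PD1, mouse 2 stood apart for Cox6a2 at 7.31 (6.10) and Uqcrfs1 at 8.93 (8.20). Both tumours had high skeletal muscle scores, at 4.65 and 3.15. In placebo, mouse 1, with the brown adipocyte transcripts, stood apart for the complex I core genes Ndufv1 at 10.35 (8.85) and Ndufs3 at 11.89 (11.30). On the low side, combination 4 had Cox7b at 11.13 (the next was 11.50), and combination 1, a bright array, had Sdhc at 5.88 (6.33).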

How the results depend on the processing

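No member passed in any of the 7 contrasts under the alternatives run, except that array weights gave 3 for the interaction in place of 0. The median over members kept its side of 0 in lenvatinib against placebo over all 34 settings, the main fit included (-0.40 to -0.19). Settings that changed only the test, or left out a mouse of the other 2 arms, could not move it. When each mouse was left out in turn, it ran from -0.27 to -0.05 for anti-PD1 and from -0.31 to -0.14 for the combination against placebo, from -0.02 to 0.16 for the combination against lenvatinib, from -0.19 to 0.04 against anti-PD1, from -0.23 to -0.01 for lenvatinib against anti-PD1, and from 0.08 to 0.29 for the interaction. Over all alternatives the interaction ran from 0.08 to 0.35.

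Of 52 named differences, none called, 12 changed sign under at least 1 alternative, in 30 values, and the cause was not tested. Without placebo 1 and the bright arrays, lenvatinib against placebo was -0.072 for Cox4i2, -0.24 for Ndufa4l2 and -0.31 for Cox8c. The combination against placebo was -0.21 for Ndufa4l2, 0.19 for Cox7a1 and 0.70 for Cox8b, and the interaction was 0.10 for Cox4i2 and 0.17 for Cox8c. Without the bright arrays alone, lenvatinib against placebo was -0.015 for Ndufa4l2 and -0.15 for Cox8c, the combination against placebo was -0.17 for Cox6a2, and the interaction of Cox8c was 0.010. Under array weights Cox8c in lenvatinib against placebo was -0.083. Without the muscle-rich tumours Cox7a2l was -0.059 in the combination and Cox4i2 0.019 in anti-PD1 against placebo, and with the muscle score as a covariate Cox7a2l was -0.0027. Leaving out 1 mouse at a time gave, for the combination against placebo, -0.021 to 0.33 for Ndufa4l2, -0.071 to 0.14 for Cox7a2l, -0.47 to 0.27 for Cox6a2 and -0.095 to 0.038 for Cox4i2. It gave -0.16 to 0.0085 for Cox4i2 in anti-PD1 and -0.019 to 0.19 for Cox8c in lenvatinib against placebo.

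With the mouse number as a replicate block, Cox6a2 in the combination against placebo was -0.14, no member was called, and the medians against placebo were -0.23 for lenvatinib, -0.13 for anti-PD1 and -0.19 for the combination. Only placebo 6 has the number 6, so these differences equal those without placebo 6 and are no separate check. The sign change of Cox6a2 is counted under both settings among the 30 values. The labels give same-numbered tumours nothing in common but the number, though lenvatinib 1, anti-PD1 1 and combination 1 were all bright arrays. The deviations of 30 same-numbered pairs correlated at a median of 0.10 (-0.63 to 0.56), and 15 exceeded 0.1. For 135 pairs with unlike numbers the median was -0.04 (-0.58 to 0.74), and 48 exceeded 0.1. Averaging probe sets was not run, since each member has 1.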
